A study of Rattus norvegicus with 6 samples.

Results

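The transcripts described here encode the adaptors and membrane tags of selective autophagy, measured in primary rat oligodendrocyte precursor cells with and without alpha-synuclein fibrils. The genes were chosen by symbol: the cargo receptors Sqstm1, Nbr1, Optn, Tax1bp1 and Calcoco1, and the ATG8 family genes Map1lc3a, Map1lc3b, Gabarap, Gabarapl1 and Gabarapl2. Of these 10 genes, 9 had a row of that symbol among the 32662 genes of the deposited table, and no row carried the symbol Map1lc3b. Calcoco1 was listed at 0 in all 6 libraries, and the other 8 passed the filter on low values (1 FPKM or more in at least 3 libraries), which left 10766 genes in all. FPKM are fragments per kilobase of gene, scaled to the mapped fragments of the library, so levels are per length and can be set beside each other between genes.

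Both groups were primary cultures from the cerebral cortex of Sprague-Dawley rats: 3 libraries labelled as control, for which no vehicle is stated, and 3 from cultures given preformed fibrils of human alpha-synuclein for 72 hours. The cells came from mixed glia of animals aged 1 to 2 days. Before treatment both groups were kept for 4 to 5 days in PDGF and FGF, growth factors that keep precursor cells dividing. Separate animals or cultures are not named for the libraries in the labels. The p-values therefore reflect the spread among these 6 samples alone, and that spread may be technical. All 6 precursor markers fixed for checking the cell type passed the filter, and they summed to between 1327 and 2090 FPKM among controls, against between 1089 and 1350 FPKM after fibrils.

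In selective autophagy, a receptor protein holds a cargo, often one tagged with ubiquitin, and at the same time binds an ATG8 protein on the growing autophagosome membrane. The ATG8 proteins (the LC3 and GABARAP subfamilies) are cut by ATG4 proteases and joined to a membrane lipid by an enzyme cascade that resembles ubiquitin conjugation. The sequestosome protein encoded by Sqstm1 gathers ubiquitin-tagged protein aggregates and is itself degraded with them, so its transcript and its protein need not move together. Alpha-synuclein aggregates inside oligodendrocytes are the hallmark of multiple system atrophy, and sequestosome protein is a known component of such inclusions.

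The libraries differed in more than the treatment. In replicate 1, the share of summed FPKM on mitochondrial genes was 80.3% for the control and 75.6% for the fibril library, whereas it was between 12% and 40.1% elsewhere. The number of fragments is unknown, but the estimated worth of 1 fragment, relative to control replicate 2, was 4.01 and 6.88 in the replicate 1 libraries and 0.809 to 1.95 in the rest. Low values are therefore least precise in replicate 1. Scaling the libraries to equal totals without mitochondrial genes moved the median log2 difference of all tested genes from -0.038 to -0.30, so differences under that scaling are also given relative to that median.

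Promoter sequence was available in the RefSeq tables (build GRCr8) for 9 of the 10 genes; the table holds none for Map1lc3a. The motifs below were searched on both strands from 250 bases before to 50 bases after the start: CACGTG, the E-box core recognised by TFEB and its relatives, the CLEAR element of lysosomal genes (a palindrome of 10 bases with CACGTG at its centre), and TGACNNNGC, the core of the antioxidant response element bound by NRF2. CACGTG and the CLEAR element were in 0 of the 9 windows, and in 6.42% and 0.233% of all 33469 promoter windows. TGACNNNGC was in 2 of the 9, Gabarap and Map1lc3b, and in 12.1% of all windows. Those promoters are printed because they hold the match, with the matched bases in capitals, and that of Sqstm1 because this gene is the best known NRF2 target of the group; each runs 5′ to 3′ on the gene's strand from 250 bases before to 10 bases after the start.
Gabarap (GRCr8 chr10:55213215-55213474, plus strand): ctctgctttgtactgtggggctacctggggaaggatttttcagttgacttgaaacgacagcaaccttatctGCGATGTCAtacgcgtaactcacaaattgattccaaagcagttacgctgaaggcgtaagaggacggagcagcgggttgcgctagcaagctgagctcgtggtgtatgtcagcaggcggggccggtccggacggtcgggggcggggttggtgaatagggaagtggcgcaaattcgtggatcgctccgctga
Map1lc3b (GRCr8 chr19:66574345-66574604, plus strand): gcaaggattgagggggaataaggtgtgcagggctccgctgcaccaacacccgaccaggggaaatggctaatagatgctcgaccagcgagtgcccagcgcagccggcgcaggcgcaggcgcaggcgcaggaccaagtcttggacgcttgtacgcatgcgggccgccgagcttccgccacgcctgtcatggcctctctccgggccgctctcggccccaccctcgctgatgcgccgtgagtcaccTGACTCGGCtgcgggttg
Sqstm1 (GRCr8 chr10:35037741-35038000, minus strand): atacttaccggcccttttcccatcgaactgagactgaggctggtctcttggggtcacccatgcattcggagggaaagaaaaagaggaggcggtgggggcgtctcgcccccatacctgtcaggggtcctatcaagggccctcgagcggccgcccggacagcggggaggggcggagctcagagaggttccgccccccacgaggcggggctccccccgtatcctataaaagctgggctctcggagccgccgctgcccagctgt
In Gabarap the match lay 179 bases before the start on the minus strand, and in Map1lc3b it began 8 bases before the start on the plus strand. A match describes the letters in the window and says nothing of binding. A window without a match, such as that of Sqstm1, says nothing of sequence outside it.

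The comparison asked whether transcripts of this machinery differed in precursor cells that had been exposed to fibrils. None of the 8 measured members was called, and in the main test neither was any other gene. The counts below therefore do not set the members apart, and the members' wide intervals do not show absence of a difference. By limma with Benjamini-Hochberg adjustment over 10766 genes, 0 of 8 members passed an adjusted p of 0.05 in either direction, and 0 of 8 had an unadjusted p under 0.05, where 4.02% of all tested genes had one. The background share called was 0% in each direction without a block, and 0.111% higher and 0% lower with the replicate number as a block, where again 0 of 8 members passed. In 0 of 8 members did the groups fail to overlap, against 9.55% of all tested genes (4.24% higher and 5.3% lower). The members' median log2(FPKM + 1) difference, fibril minus control, was 0.21, beside -0.038 over all tested genes, and 6 of the 8 differences were positive (47.0% of all tested genes were). These counts moved with the setting: scaled without mitochondrial genes the members' median was -0.093 with 3 of 8 positive (27.7% of all tested genes), and under quantile normalization it was 0.048 with 5 of 8. Without fibril replicate 3 the median was 0.054 with 4 of 8 positive. In bulk RNA, fewer cells of a type and less RNA per cell cannot be told apart.

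**Figure D1:**
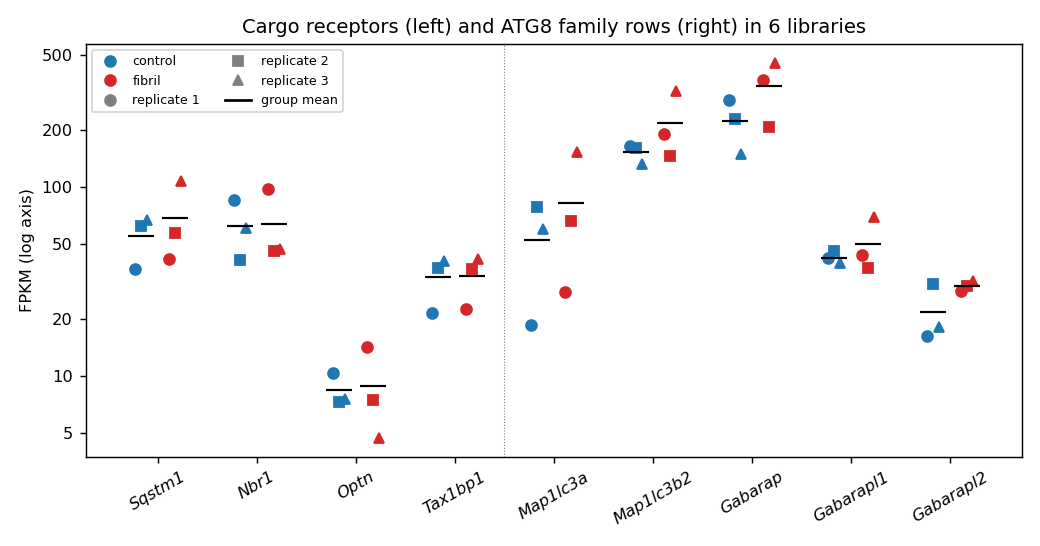
FPKM (log axis) of the 4 measured cargo receptors (left) and the ATG8 family rows (right) in 3 control (blue) and 3 fibril (red) libraries, with a marker shape per replicate number and bars at the group means. The groups overlap for every gene, and Gabarap is the highest and Optn the lowest in all 6 libraries.

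Among the cargo receptors, Sqstm1 (identifier ENSRNOG00000003147, chromosome 10, 35680658 to 35716294 in the deposited table, whose genome build is not given in the sources used here) had 36.7, 62.0 and 67.4 FPKM in control replicates 1, 2 and 3. With fibrils it had 41.5, 57.0 and 107 FPKM, in the same order, which is kept for all values below. Fibril replicate 3 was the highest library and both replicate 1 libraries were the lowest, so the groups overlapped. The means were 55.3 ± 16.4 and 68.6 ± 34.4 FPKM (SD, n = 3 each), and the log2 difference was 0.24 (SE 0.48, 95% interval -0.85 to 1.33, limma adjusted p = 0.97). That difference was -0.068 when scaled without mitochondrial genes (0.23 relative to all genes) and -0.019 under quantile normalization, and it was -0.14 without fibril replicate 3 and -0.028 without control replicate 1. The deposited locus of Sqstm1 is shared with the row RGD1564036, which had 0.95 to 6.14 FPKM. The libraries are strand-specific, but whether strand was used in counting is not given.

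Nbr1 encodes a receptor that works beside the sequestosome protein and shares its domain layout. It had 85.0, 41.2 and 60.6 FPKM among controls, against 97.8, 45.6 and 47.0 FPKM after fibrils (chromosome 10, 89459650 to 89484080). Replicate 1 was the highest library in each group, the reverse of Sqstm1. The log2 difference was close to 0 (-0.0050, SE 0.47, 95% interval -1.08 to 1.07), and limma's adjusted p was 1.00.

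Optn encodes optineurin, a receptor for damaged mitochondria and bacteria that the kinase TBK1 activates. Its values were 10.3, 7.25 and 7.57 FPKM among controls, against 14.2, 7.47 and 4.69 FPKM after fibrils (chromosome 17, 77167740 to 77218389). The highest and the lowest library were both in the fibril group. The log2 difference was -0.043 (SE 0.45, 95% interval -1.07 to 0.99; 0.077 under quantile normalization), and the within-replicate differences were 0.42, 0.039 and -0.59 for replicates 1, 2 and 3.

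Tax1bp1 encodes a ubiquitin-binding receptor related to the CALCOCO proteins. It had 21.6, 37.4 and 40.8 FPKM among controls, against 22.5, 37.0 and 41.7 FPKM after fibrils (chromosome 4, 82776746 to 82833773). Its within-replicate log2 differences were 0.057, -0.017 and 0.030, the narrowest range of the 8 members, while its limma interval, which also holds the spread between replicate numbers, ran from -0.95 to 1.00. Scaled without mitochondrial genes the log2 difference was -0.28, or 0.023 relative to all genes, and under quantile normalization it was -0.13 (0.023 as deposited). Calcoco1 encodes a receptor for the endoplasmic reticulum and Golgi. It was listed at 0 in every library (chromosome 7, 144307509 to 144322240), and because an exact 0 in such a table can be a failed estimate, no level is read from it.

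Among the ATG8 family, Gabarap was the most abundant in all 6 libraries, between the 97.3rd and the 98.2nd percentile of tested genes (chromosome 10, 56601288 to 56604221). It had 291, 231 and 151 FPKM among controls, against 371, 209 and 457 FPKM after fibrils. Fibril replicates 1 and 3 lay above all controls and fibril replicate 2 lay below 2 of them. The means were 224 ± 70.3 and 346 ± 126 FPKM (SD, n = 3 each), and the log2 difference was 0.60 (SE 0.52, 95% interval -0.58 to 1.78, limma adjusted p = 0.96). Under quantile normalization it was 0.20 and scaled without mitochondrial genes it was 0.29 (0.59 relative to all genes), and without control replicate 3 it was 0.34.

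Map1lc3a encodes an LC3 protein. It had 18.5, 78.3 and 60.1 FPKM among controls, against 27.6, 66.2 and 153 FPKM after fibrils (chromosome 3, 150801289 to 150802935). Both replicate 1 libraries lay below the other 4, and this gene had the widest standard error of the 8 (log2 difference 0.55, SE 0.72, 95% interval -1.09 to 2.19). The difference was -0.063 without control replicate 1 and -0.053 without fibril replicate 3.

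Gabarapl1 and Gabarapl2 encode the other GABARAP proteins. Gabarapl1 had 41.9, 45.7 and 39.4 FPKM among controls, against 43.4, 37.1 and 69.8 FPKM after fibrils (chromosome 4, 163293724 to 163302858). Its control libraries varied least of the members relative to their mean, with 42.3 ± 3.18 FPKM (SD, n = 3), and fibril replicate 3 alone stood above them all by a wide margin. The log2 difference was 0.19 (SE 0.40), -0.12 when scaled without mitochondrial genes (0.19 relative to all genes) and -0.072 without fibril replicate 3. Gabarapl2 had 16.3, 30.8 and 18.1 FPKM among controls, against 28.2, 29.98 and 31.8 FPKM after fibrils (chromosome 19, 44164935 to 44175770). Control replicate 2 lay among the fibril libraries and the other controls lay below them. Its log2 difference of 0.50 (SE 0.39, 95% interval -0.39 to 1.38, limma adjusted p = 0.96) had the smallest p of the 8 members and was positive under every alternative run, at 0.20 when scaled without mitochondrial genes (0.50 relative to all genes) and 0.33 without control replicate 1.

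The missing LC3 gene may be present under another symbol. A row with the symbol Map1lc3b2 (ENSRNOG00000017905, chromosome 19, 53629779 to 53646058) lies between Fbxo31 and Zcchc14 in the deposited table. In RefSeq those are the neighbours of Map1lc3b on chromosome 19, whereas RefSeq's Map1lc3b2 is a pseudogene on chromosome 16, between Agpat5 and Mcph1. The row was looked at after the values were seen and is not counted among the members. It had 166, 161 and 133 FPKM among controls, against 192, 145 and 322 FPKM after fibrils, the second highest of the 9 measured rows in all 6 libraries. Its log2 difference was 0.44 (SE 0.47, limma adjusted p = 0.96), and 0.13 without fibril replicate 3. Near-identical copies such as that pseudogene can share reads, and how the authors' counting treated them is not given, so the levels of LC3 and GABARAP transcripts carry that uncertainty.

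Every ATG8 row was higher with fibrils in replicates 1 and 3 and lower in replicate 2. In replicate 1 the fibril-to-control FPKM ratio was 1.5 for Map1lc3a, 1.28 for Gabarap, 1.04 for Gabarapl1, 1.73 for Gabarapl2 and 1.15 for Map1lc3b2. In replicate 2 all 5 ratios were below 1, from 0.813 for Gabarapl1 to 0.973 for Gabarapl2. In replicate 3 they ran from 1.76 for Gabarapl2 to 3.03 for Gabarap. Without fibril replicate 3 the log2 differences were 0.36 for Gabarap, 0.46 for Gabarapl2, -0.072 for Gabarapl1 and -0.053 for Map1lc3a, so the sign of Gabarapl1 and Map1lc3a rests on that library. Fibril replicate 3 was also the library with the lowest mitochondrial share (12%), and the part of that share in these values was not tested.

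**Figure D2:**
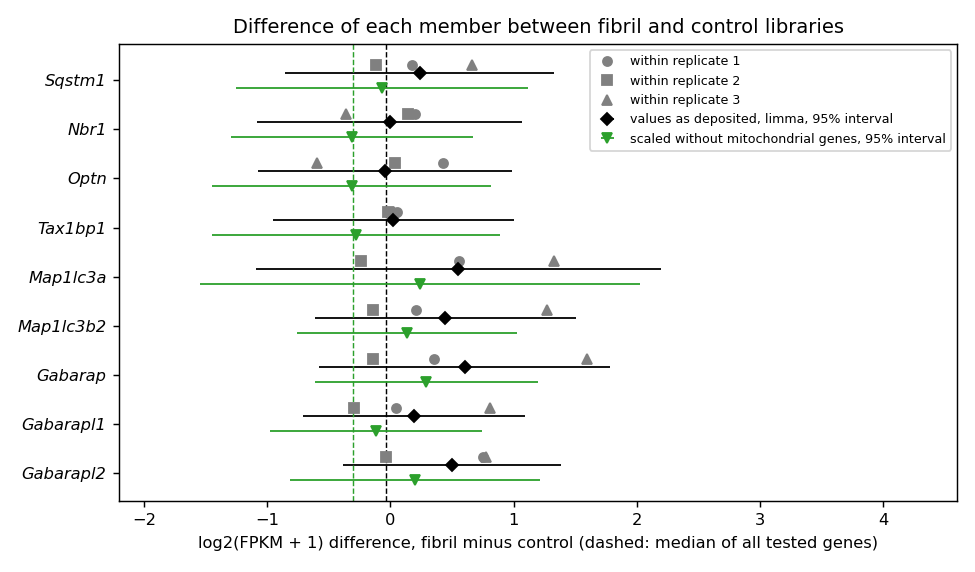
Difference in log2(FPKM + 1), fibril minus control, with 95% limma intervals for the values as deposited (black diamonds) and scaled without mitochondrial genes (green triangles); grey markers are differences within replicate numbers and dashed lines the medians of all tested genes under each scaling (-0.038 and -0.30). All intervals include 0, and the ATG8 rows are negative within replicate 2 and highest within replicate 3.

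By level per length, Gabarap ranked first, the Map1lc3b2 row second and Optn last of the 9 measured rows in every library. Sqstm1 ranked between 3 and 5, Nbr1 between 3 and 6, Map1lc3a between 3 and 7, Gabarapl1 between 4 and 7, and Gabarapl2 and Tax1bp1 each between 6 and 8. Sqstm1 and Nbr1 were above Gabarapl2 and Tax1bp1 in all 6 libraries, and Gabarapl1 was above Gabarapl2 in all 6. All other pairs among these 6 genes changed order between libraries.

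Shares within each family do not move with a scale factor of a library, so they were compared as well. Gabarapl1 made up 11.4%, 11.9% and 14.7% of the summed FPKM of the 4 ATG8 members in control replicates 1, 2 and 3, and 9.24%, 10.8% and 9.82% with fibrils. All 3 fibril libraries were below all 3 controls, and the mean share was 2.69 points lower (12.7% ± 1.78 against 9.96% ± 0.811, SD, n = 3 each). The exact two-sided permutation test gave p = 0.1, the smallest that 3 against 3 libraries allow, and 0.4 after Benjamini-Hochberg adjustment over the 4 shares. With the Map1lc3b2 row counted in, the Gabarapl1 share was 7.86%, 8.37% and 9.82% against 6.56%, 7.61% and 6.76%, again without overlap. The other 3 shares overlapped between groups. Gabarap took between 56.2% and 79.1% in controls and between 61.1% and 78.9% with fibrils, with its highest share in replicate 1 of both groups, and Map1lc3a took 5.03% and 5.88% in replicate 1 against 19.3% to 22.4% in the other 4 libraries.

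All 4 receptor shares overlapped between the groups. In replicate 1, Nbr1 made up 55.3% (control) and 55.6% (fibril) of the summed receptor FPKM, and Sqstm1 23.9% and 23.6%. In replicates 2 and 3 Sqstm1 was the larger of these in all 4 libraries, with 41.9% and 38.2% in controls and 38.7% and 53.5% with fibrils. Fibril replicate 3 had the highest Sqstm1 share and the lowest Nbr1 (23.4%) and Optn (2.34%) shares. Over the 4 receptors the exact permutation p ran from 0.7 to 1, and the adjusted p was 1 for each (n = 3 each).

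**Figure D3:**
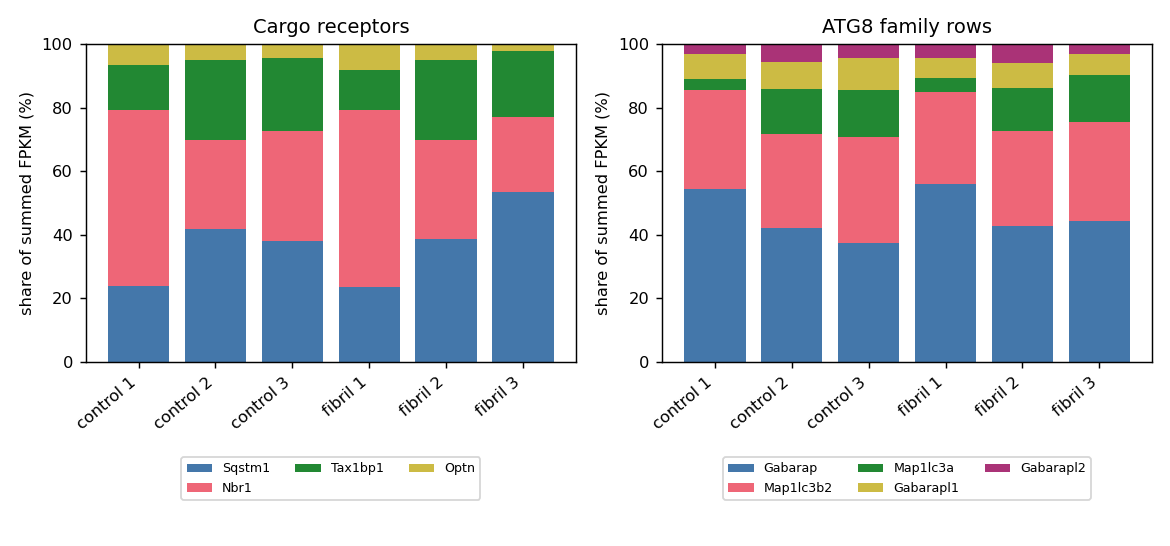
Share of each gene in the summed FPKM of the 4 measured cargo receptors (left) and of the 5 ATG8 family rows including Map1lc3b2 (right), as stacked bars for each of the 6 libraries. Nbr1 takes 55.3% and 55.6% of receptor FPKM in the replicate 1 libraries, and Gabarapl1 is at 7.86% to 9.82% in controls and 6.56% to 7.61% with fibrils.

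The replicate number also separated libraries. In 5 of the 8 measured members both replicate 1 libraries lay outside the other 4, Nbr1 and Optn above them and Sqstm1, Tax1bp1 and Map1lc3a below. Among all tested genes 47.2% had this pattern (19.9% above and 27.3% below). The mean of the replicate 1 libraries over the mean of the others was 1.88 for Nbr1, 1.82 for Optn, 0.533 for Sqstm1, 0.563 for Tax1bp1 and 0.258 for Map1lc3a. For Gabarap, Gabarapl1 and Gabarapl2 it was 1.26, 0.889 and 0.805. The ratio of group means, fibril over control, lay between 1.01 for Tax1bp1 and 1.57 for Map1lc3a.

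The genes upstream and downstream of these members were read from 9 lists of the autophagy pathway, with 89 genes and 81 tested rows. By limma 0 of 81 passed an adjusted p of 0.05, without a block or with it, and 4 had an unadjusted p under 0.05 (Tfeb, Mitf, Bnip3 and Nqo1; 4.94%, against 4.02% of all tested genes). The groups did not overlap in 9 of the 81 (11.1%, against 9.55%), with 6 higher in the fibril libraries (Tfeb, Mitf, Nqo1 and Atg5 among them) and 3 lower (Ccpg1, Atg7 and Gclm). Atg5, Ccpg1 and Atg7 are outside the naming rule and were named after their values were seen. Over all 81 rows the median log2 difference was 0.027, beside -0.038 over all tested genes. Of the 81 rows 46 were positive, where 47.0% of all tested genes were. List medians and positive counts, here and below, are for the values as deposited and were not recomputed under other scalings. The shares with an unadjusted p under 0.05 and without overlap lie near those of all tested genes.

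The list of kinases and transcription factors that act on receptors and lysosomal genes held the widest positive difference of the pathway. Tfeb encodes a master activator of lysosomal and autophagy genes. It had 1.47, 2.00 and 2.28 FPKM among controls, against 3.38, 6.73 and 23.8 FPKM after fibrils (chromosome 9, 15207822 to 15214596). All 3 fibril libraries were above all 3 controls, and the log2 difference was 1.70 (SE 0.61, 95% interval 0.31 to 3.09), but limma's adjusted p was 0.96, and 0.349 with the replicate block. Its relative Mitf, of the same transcription factor family, had 1.49, 2.44 and 2.04 FPKM against 9.58, 4.23 and 3.45 FPKM, also without overlap (log2 difference 1.08, SE 0.44, limma adjusted p = 0.96). Both differences were positive under every alternative run, but their size moved with single libraries: Tfeb was 1.01 without fibril replicate 3, and Mitf was 0.70 without fibril replicate 1. Low values in replicate 1 rest on few fragments. Tfe3, of the same family and in the same list, did not share this pattern. It had 3.42, 6.49 and 7.88 FPKM among controls, against 3.54, 5.90 and 3.01 FPKM after fibrils. Its groups overlapped, and the ratio of means, fibril over control, was 0.70. Tfe3 is outside the naming rule and was named after its values were seen. Of the 11 tested genes in this list 5 were positive, and the median log2 difference was -0.030.

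Marker lists of other cell states and types differed in level beside these genes. The 8 markers of differentiating oligodendrocytes summed to between 278 and 773 FPKM among controls, against between 1232 and 2921 FPKM after fibrils, and 6 of the 8 did not overlap between groups (9.55% of all tested genes did not). By limma 0 of these 8 passed an adjusted p of 0.05 without a block, as did 0% of all tested genes. An unadjusted p under 0.05 was found for 7 of the 8, against 4.02% of all tested genes. With the replicate block 2 passed, Mag (limma adjusted p = 0.0267) and Enpp6 (0.0435), where 0.111% of all tested genes were called higher. The microglia markers with a row (9 of 10) summed to between 1.81 and 38.6 FPKM among controls, against between 11.1 and 49.7 FPKM after fibrils; 5 passed the filter, of which 4 were positive with a median log2 difference of 0.96. Tyrobp had 0, 4.48 and 0 FPKM among controls, against 1.93, 18.7 and 8.76 FPKM after fibrils, and Cd68 was higher in 3 of 3 replicate numbers (log2 difference 1.13, limma adjusted p = 0.96). C1qa had 0, 10.3 and 0.613 FPKM against 0, 2.93 and 3.23 FPKM, and C1qb 0, 8.36 and 0.118 FPKM against 0, 2.07 and 3.67 FPKM. C1qa and C1qb were each higher in 1 of 3 replicate numbers. The groups did not overlap in 0 of the 5 tested microglia markers. Cx3cr1 was listed at 0 in all libraries but control replicate 2 (0.8 FPKM). The 8 astrocyte markers summed to between 145 and 162 FPKM among controls, against between 92.7 and 232 FPKM after fibrils. Aldoc alone had 181 FPKM in fibril replicate 3. Of the 7 tested astrocyte markers 2 were positive, and the median log2 difference was -1.40. By limma 5 of them had an unadjusted p under 0.05, but 0 passed an adjusted p of 0.05. The 7 neuron markers summed to between 273 and 601 FPKM among controls, against between 111 and 398 FPKM after fibrils. Of these 0 were positive, and the median log2 difference was -0.62. Of the 7 tested astrocyte markers Gfap was higher without overlap, and Slc1a3, Gja1 and Slc4a4 were lower without overlap. Of the 7 tested neuron markers Dcx, Snap25 and Stmn2 were lower without overlap. Among all tested genes 9.55% did not overlap in either direction. The part of these markers in the values of Tfeb, Mitf or the members was not tested.

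Among the 10 genes for attaching ATG8 proteins to membranes, 8 differences were positive, where 47.0% of all tested genes were. The median was 0.29 on the log2 scale, beside -0.038 over all tested genes. Atg4a and Atg4d, which encode ATG8 proteases, had the smallest p of the list. Atg4a had 6.39, 2.62 and 2.04 FPKM among controls, against 11.9, 5.21 and 5.38 FPKM after fibrils, higher in 3 of 3 replicate numbers with overlapping groups (log2 difference 0.88, SE 0.50). Atg4d had 3.91, 8.70 and 6.54 FPKM against 5.91, 10.1 and 19.7 FPKM (log2 difference 0.71, SE 0.50). Atg4a was 0.54 without fibril replicate 1, and Atg4d was 0.30 without fibril replicate 3. Scaled without mitochondrial genes, Atg4a was 0.65 and Atg4d was 0.43.

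Bnip3, a mitophagy receptor of the outer mitochondrial membrane that hypoxia is known to induce, led the other cargo receptors. It had 59.5, 24.5 and 14.4 FPKM among controls, against 87.6, 56.1 and 62.6 FPKM after fibrils. It was higher in 3 of 3 replicate numbers, but control replicate 1 lay above fibril replicate 2 (log2 difference 1.25, SE 0.54, limma adjusted p = 0.96). Bcl2l13, another mitophagy receptor, had 9.06, 17.3 and 20.3 FPKM against 7.22, 12.2 and 3.93 FPKM, lower in 3 of 3 replicate numbers (log2 difference -0.96, SE 0.49). Bnip3 was 0.80 without control replicate 3, and Bcl2l13 was -0.60 without fibril replicate 3. Of the 15 tested genes of this list 7 were positive, and the median was -0.059.

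The initiation complex (5 genes, 1 positive, median -0.26) and the fusion genes (9 tested, 2 positive, median -0.26) had negative medians. Their members with the smallest p were the scaffold gene Atg13 (log2 difference -0.55, SE 0.47) and the kinase gene Ulk1 (-0.26, SE 0.38), and the tethering genes Epg5 (-0.66, SE 0.53) and Tecpr1 (-0.59, SE 0.49). Single libraries moved these values: Atg13 was -0.085 and Epg5 -0.24 without fibril replicate 3, Ulk1 was -0.085 without control replicate 3, and Tecpr1 was -0.28 without fibril replicate 1. The nucleation genes, of the lipid kinase complex around beclin, had a median of 0.26 with 7 of 8 positive, and the smallest p were those of Rubcn (-0.81, SE 0.67), an inhibitor of the complex, and Nrbf2 (0.63, SE 0.54), one of its subunits. Rubcn ran from -1.40 without control replicate 1 to -0.38 without control replicate 3, and Nrbf2 was 0.10 without control replicate 1. The membrane supply genes had a median of 0.0084 with 5 of 9 positive, and the smallest p were those of Wipi1 (0.43, SE 0.47), which reads the lipid made by that kinase, and the lipid transfer gene Atg2b (-0.29, SE 0.38). Wipi1 ran from 0.096 without fibril replicate 1 to 0.78 without control replicate 1, and Atg2b was -0.10 without control replicate 3. The groups overlapped for each of these 8 genes.

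The lists that bear on Sqstm1 in particular were read as well. The median for ubiquitin genes was 0.53 with 6 of 6 rows positive. Rps27a encodes a fusion of ubiquitin with a ribosomal protein, and of its 2 rows the one with the smaller p is given. It had 483, 669 and 276 FPKM against 625, 799 and 1194 FPKM (log2 difference 0.91, SE 0.59). That difference was 0.57 without control replicate 3, 0.60 when scaled without mitochondrial genes and 0.36 under quantile normalization. Among NRF2 targets the median was 0.22 with 5 of 8 positive. The quinone reductase gene Nqo1 had 0.375, 1.79 and 2.00 FPKM among controls, against 5.18, 2.57 and 3.87 FPKM after fibrils, without overlap (1.08, SE 0.45), while Gclm, a glutathione synthesis gene, had 8.40, 12.4 and 10.2 FPKM against 7.60, 6.29 and 6.90 FPKM, lower without overlap (-0.50, SE 0.36). None of these passed (limma adjusted p = 0.96 for each).

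**Figure D4:**
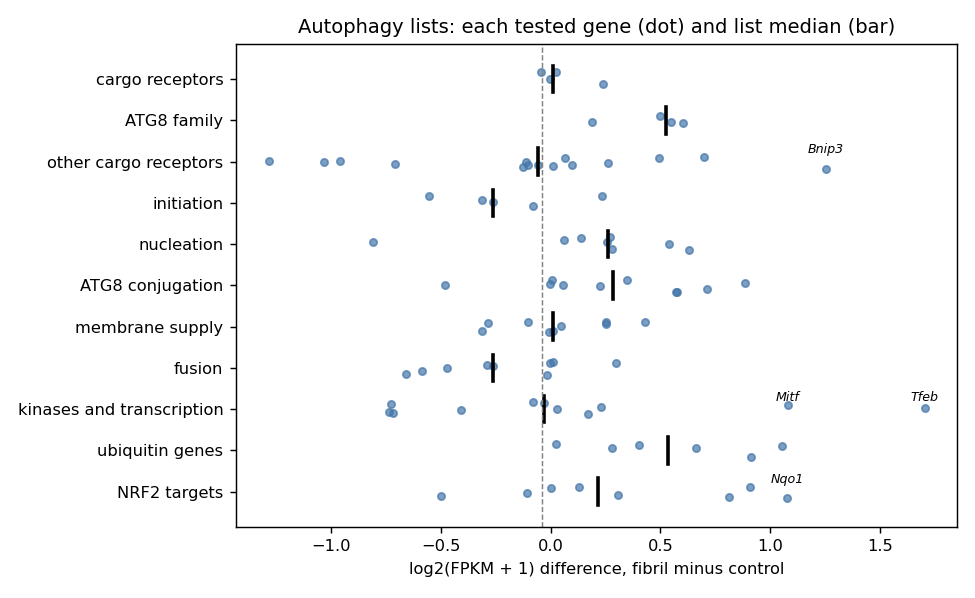
Difference in log2(FPKM + 1), fibril minus control, for each tested gene (dots, spread vertically for visibility) of the cargo receptor and ATG8 lists and of 9 further autophagy lists, with list medians (bars) and the median of all tested genes (dashed, -0.038). For the values as deposited, Tfeb has the highest difference at 1.70, and the ATG8 median is 0.52 against 0.0091 for the cargo receptors. Under quantile normalization (not drawn) the ATG8 differences ran from 0.018 for Gabarapl1 to 0.41 for Gabarapl2. Those of the receptors then ran from -0.21 for Nbr1 to 0.077 for Optn.

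The genes whose profile over the 6 libraries was most like that of a member were ranked among 5332 genes with a mean of 10 FPKM or more, by the root mean square difference between centred log2(FPKM + 1) values. For Sqstm1 they were Sdf4 (0.0588), Usp39 (0.0845), Slc39a1 (0.0935), Ppm1g (0.0936) and Rtfdc1 (0.0986). For Gabarapl1 they were Gfer (0.0702), Riok2 (0.0714), Stoml2 (0.0718), Cops8 (0.0844) and Cops4 (0.0862). Each of these 10 genes had its highest value in fibril replicate 3, as did Sqstm1 and Gabarapl1.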

How the data were processed

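Transcripts were measured by strand-specific RNA-seq in 3 control and 3 fibril libraries. The authors deposited 1 table of FPKM per gene and library, per the file headers. The submitters' processing notes name Trimmomatic and FastQC; which aligner, quantifier and genome build were used is not given in the sources used here. Deposited loci count from 0, and starts were printed 1-based. FPKM are not counts, so no count model was run. Values were analysed as log2(FPKM + 1), which understates the change of low genes, with limma 3.58.1 in R 4.3.3 (two-sided, trended prior variance). The p-values were adjusted by Benjamini-Hochberg over the 10766 genes that reached 1 FPKM in 3 or more libraries. The fit was tried on simulated data with independent noise, which held no shift shared by the replicate 1 libraries, so it does not cover that feature. Shares were tested with exact permutation tests.

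Replicate numbers are shared by the groups, although the labels state no pairing. Same-numbered libraries correlated across genes, after subtracting group means, at 0.747, 0.364 and 0.216 for replicates 1, 2 and 3. All were above the 0.1 set for treating them as pairs. However, control replicate 3 correlated at 0.5 with fibril replicate 2, and control replicate 2 at 0.433 with fibril replicate 3. Only replicate 1 was thus set apart by these values. For replicates 2 and 3, the block and the within-replicate differences rest on the numbers in the labels. Relative fragment worth was estimated from values below 1 FPKM, as the ratio to fibril replicate 3 that most genes share within 0.03 on the log2 scale. The members and lists were chosen with earlier results of these data known. All 10 members are named, and of each pathway list the 2 genes with the smallest limma p; Retreg1 and Ubb had no row of that symbol. Some genes of the lists are not reported here. Alternatives were a replicate block, 2 other pseudocounts (0.1 and 5), 2 other filters, 2 other scalings, an adjusted p of 0.1 and leaving out each library; replicates 2 and 3 only, and the Map1lc3b2 row as an ATG8 gene, were added after the data were seen.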

Additional observations from a re-analysis of the deposited data

How the results depend on the processing

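The number of members called was 0 higher and 0 lower in the main analysis and under every alternative run, the replicate block included, which changed no call of a member or a named pathway gene. Of 529 values recomputed under alternatives, 44 changed sign, and the cause was not tested. The other 485 changed neither sign nor side of the threshold. Those 485 include the counts of members called, which were 0 throughout and have no direction. They also include share differences, whose exact tests could not cross the threshold. Scaled without mitochondrial genes, with or without the block, the log2 differences became -0.12 for Gabarapl1, -0.068 for Sqstm1 and -0.28 for Tax1bp1. Under quantile normalization, with or without the block, they became -0.019 for Sqstm1, -0.13 for Tax1bp1 and 0.077 for Optn. With replicates 2 and 3 only, the Gabarapl2 share difference was -0.761 points (0.0107 with all libraries). Leaving out 1 library at a time, the log2 differences ran from -0.14 to 0.54 for Sqstm1, -0.36 to 0.25 for Nbr1, -0.42 to 0.29 for Optn, -0.25 to 0.28 for Tax1bp1, -0.063 to 1.16 for Map1lc3a and -0.072 to 0.37 for Gabarapl1. The share differences, in points, ran from -5.80 to 4.49 for Map1lc3a, -2.37 to 10.1 for Gabarap, -1.16 to 0.979 for Gabarapl2, -3.51 to 11.4 for Sqstm1, -12.0 to 5.57 for Nbr1, -1.60 to 1.27 for Optn and -4.66 to 2.12 for Tax1bp1. The Gabarapl1 share difference stayed negative, from -3.31 to -1.67. Paired sign-flip tests over 3 pairs cannot go below 0.25, and 3 libraries against 3 cannot go below 0.1, so neither can pass 0.05. Without fragment counts, no counting error can be given for a value.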
